A study of Homo sapiens with 4 samples.

Results

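BASP1, MARCKS, MARCKSL1 and GAP43 encode lipid-anchored proteins of the inner face of the plasma membrane, and their transcripts were followed here across a double knockdown in SK-BR-3, an established HER2-amplified human breast cancer cell line with missense-mutant p53. The 4 genes were chosen as a family by symbol, and BASP1 was picked because it rose with p53 shRNA, so its values in that contrast are a description and support nothing. They are represented by 11 of the 54675 probe sets on the array and make up 4 of 19775 genes named from probe sets with a single gene symbol. The 4 groups, with 1 Affymetrix array each, were p53 shRNA with Pontin siRNA, p53 shRNA, Pontin siRNA with the control vector, and control shRNA. All cells were SK-BR-3 selected with puromycin after transfection of the shRNA or its control, which is named both as a control shRNA and as an empty vector. The arms without Pontin siRNA are titled sicon, which the labels leave undefined, and RNA was taken 24 h after the siRNA step. The labels name 1 cell line, give no shRNA or siRNA sequence, and leave unsaid whether each arm was selected separately. Pontin is the AAA+ ATPase encoded by RUVBL1, and the design asks which transcripts follow mutant p53, Pontin or both.

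MARCKS and MARCKSL1 are N-myristoylated proteins whose basic effector domain binds acidic phospholipids, calmodulin and actin. Phosphorylation of that domain by protein kinase C, or calmodulin binding, releases the domain from the membrane and frees the phosphoinositide PIP2 it had held. BASP1 is likewise myristoylated and binds calmodulin and PIP2 at the membrane, and in the nucleus it acts as a corepressor of the transcription factor WT1. GAP43, which is anchored by palmitoylation, is known as a growth cone protein of neurons.

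The signals are MAS5 values on a linear scale, with a trimmed mean of 150.0 on each array as deposited, so the arrays had been scaled to a common level. Over all probe sets, the median of an array was 19.6 for both knockdowns, 16 for p53 shRNA, 16.5 for Pontin siRNA and 15.9 for control shRNA. On the array with both knockdowns the 18 hybridization control probe sets had a mean 1.42 times that on the control array, with 18 of 18 higher. RUVBL1, on its single probe set, had a signal of 127.4 with Pontin siRNA, against 477.7 with control shRNA, and 65.8 with both knockdowns, against 398.2 with p53 shRNA. The knockdown of p53 was not checked here. The luminal and HER2 markers ERBB2, GRB7, KRT8, KRT18, KRT19 and EPCAM were all among the bright genes, whereas 0 of 3 immune markers reached the signal limit for genes kept. Of 4 fibroblast markers COL1A1 alone reached it, and COL1A1 was bright. Of 3 basal markers KRT17 had no usable probe set, and of the other 2 KRT5 alone reached the limit. Both endothelial genes, PECAM1 and CDH5, reached it without being bright.

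Each knockdown was read in a pair of comparisons that use different arrays. With p53 shRNA the first pair was p53 shRNA over control shRNA and the second was both knockdowns over Pontin siRNA. With Pontin siRNA the first pair was Pontin siRNA over control shRNA and the second was both knockdowns over p53 shRNA. The control array therefore enters the first pair of each knockdown, and the array with both knockdowns enters the second pair of each. A call needed a difference of 1.5-fold or more, 0.58 in log2, in the same direction in the first and in the second pair. Ratios were computed for the 12056 genes whose brightest probe set had a geometric mean signal of at least 15.4, the median of all probe sets, and the 7732 genes at or above 110.9, the 75th percentile, are called bright. No group has a replicate, so no test was made and no p-value is given.

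Of the 4 genes, 3 were kept and all 3 were bright. GAP43 was not kept. Signals of different probe sets depend on probe affinity as well as on RNA, so signals were compared between arrays only.

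**Figure D1:**
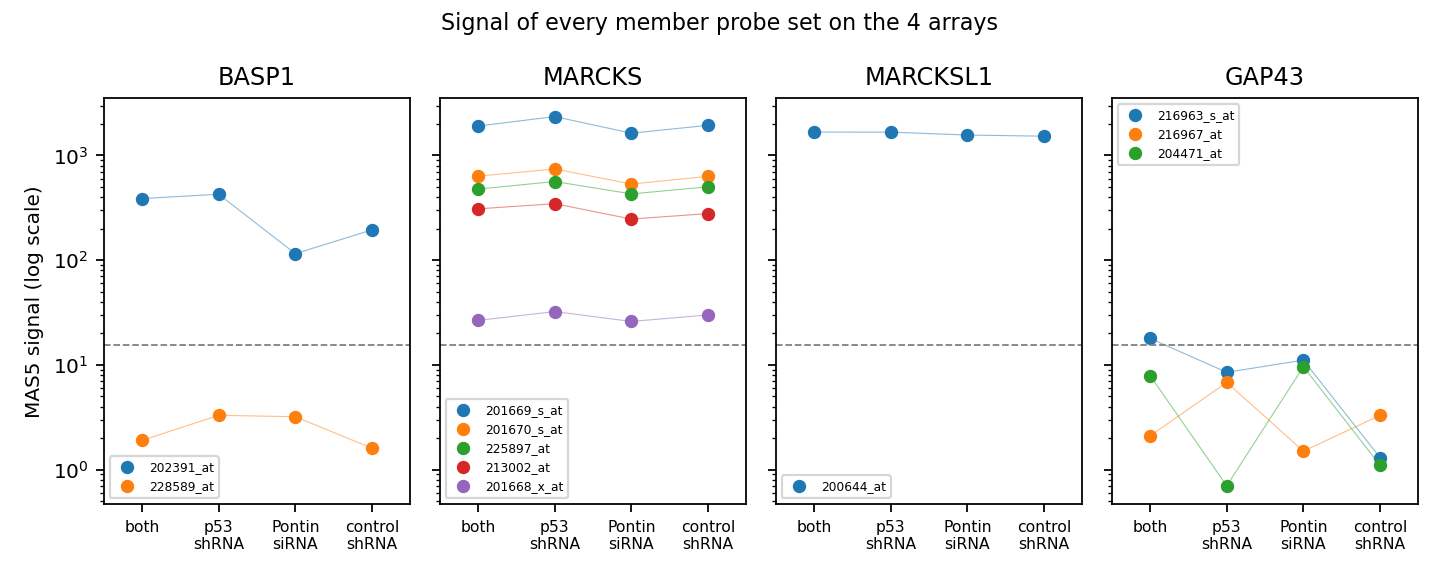
MAS5 signal (log axis) of each of the 11 member probe sets on the 4 arrays, 1 point per array, with the limit for genes kept (15.4) as a dashed line; thin lines join points of 1 probe set. BASP1 on probe set 202391_at sits at 387.6 and 426.5 on the arrays with p53 shRNA, against 115.4 and 194.7 on those without it, while MARCKSL1 stays between 1528.3 and 1672.3.

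BASP1, picked for its rise, MARCKS and MARCKSL1 were all above 0 in both p53 shRNA pairs, as were 30.6% of all genes kept. With Pontin siRNA BASP1 and MARCKS were below 0 in both pairs, as were 32% of all genes kept, and MARCKSL1 was not. For these signs the windows upstream of the 3 genes kept are shown. They are the 250 bases before each annotated start, from RefSeq on build GRCh38.p14, 5′ to 3′ on the gene's strand, with matches to GGGCGG (the GC box) or CCAAT on either strand in capitals.
BASP1, chr5:17216573-17216822, plus strand: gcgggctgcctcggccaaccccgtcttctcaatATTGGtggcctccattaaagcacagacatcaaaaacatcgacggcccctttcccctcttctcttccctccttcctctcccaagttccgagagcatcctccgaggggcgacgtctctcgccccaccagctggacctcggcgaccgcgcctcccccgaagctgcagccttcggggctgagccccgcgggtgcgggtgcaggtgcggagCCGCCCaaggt
MARCKS, chr6:113857095-113857344, plus strand: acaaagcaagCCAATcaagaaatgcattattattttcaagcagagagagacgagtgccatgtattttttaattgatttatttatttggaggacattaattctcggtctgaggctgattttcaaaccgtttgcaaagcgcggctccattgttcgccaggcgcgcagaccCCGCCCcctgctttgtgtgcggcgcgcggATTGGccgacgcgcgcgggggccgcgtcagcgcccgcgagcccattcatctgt
MARCKSL1, chr1:32336234-32336483, minus strand: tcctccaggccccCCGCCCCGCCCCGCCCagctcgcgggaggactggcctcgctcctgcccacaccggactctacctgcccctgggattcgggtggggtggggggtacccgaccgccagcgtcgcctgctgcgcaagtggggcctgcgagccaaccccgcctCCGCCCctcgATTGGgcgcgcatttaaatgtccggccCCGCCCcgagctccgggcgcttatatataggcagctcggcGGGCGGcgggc
The BASP1 window held 1 GC box, at 11 bases before the start, and 1 CCAAT, and the MARCKS window held 1 GC box and 2 CCAAT. The MARCKSL1 window held 6 GC boxes, of which the 3 farthest from the start overlap one another, and 1 CCAAT. The GAP43 window, not shown, held 1 CCAAT and no GC box. Over 27305 promoter windows of the same length, 42.3% held a GC box and 33% a CCAAT. On both strands, none of the 4 windows held the letters TATAAA, a form of the TATA box present in 11.1% of all windows. Other forms were not searched, and the MARCKSL1 window shown holds the related stretch TATATATA near its start. None of the 4 windows matched the E box CACGTG, present in 6.49% of windows. The AP-1 site TGANTCA, present in 6.6% of windows, and the p53 response element decamer, present in 5.53%, had no match in them. GC content was 65.6% for BASP1, 52.8% for MARCKS and 74% for MARCKSL1, beside a median of 58% over all windows. The ratio of observed to expected CpG was 0.82, 1.32 and 0.83, beside a median of 0.56. Genes were of different sizes on the same build, 60012 bases for BASP1 on chromosome 5, 6131 for MARCKS on chromosome 6, 2395 for MARCKSL1 on chromosome 1 and 97974 for GAP43 on chromosome 3.

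BASP1 was higher wherever p53 shRNA was present. Its probe set 202391_at gave a signal of 426.5 with p53 shRNA, against 194.7 with control shRNA, 2.19-fold higher. In cells with Pontin siRNA it gave 387.6 with both knockdowns, against 115.4 with Pontin siRNA, 3.36-fold higher. Both arrays with p53 shRNA thus lay above both arrays without it, and the log2 ratios were 1.13 and 1.75. By the mean of the pairs, 1.44, BASP1 had the third highest value among the 7732 bright genes. It was the only gene of the family called for p53 shRNA, where 1.38% of genes kept and 0.22% of bright genes were called higher, and since it was chosen for this rise nothing is read from that count. The summed signal of the 2 endothelial markers was 146.5 with both knockdowns and 124.7 with p53 shRNA, against 96.0 with Pontin siRNA and 100.9 with control shRNA. That of the basal markers KRT5 and KRT14, the latter not kept, was 43.9 and 31.3, against 12 and 27.9, on the same arrays. The luminal and HER2 sum was 40466.8 and 36301.4, against 35487.5 and 34679.5. The fibroblast sum was 202.8 and 181, against 195.2 and 187.6. The immune sum, with no gene kept, was 32.9 and 21.9, against 11.3 and 28.7. Both of these last sums were lower with p53 shRNA than with control shRNA. The part of these cell type markers in the BASP1 result was not tested. In RNA from whole cultures, a larger share of cells carrying the transcript and more transcript per cell cannot be told apart.

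With Pontin siRNA, BASP1 was lower in cells with control shRNA and differed little in cells with p53 shRNA. The signal was 115.4 with Pontin siRNA, against 194.7 with control shRNA, 1.69-fold lower. With both knockdowns it was 387.6, against 426.5 with p53 shRNA, 1.10-fold lower. The log2 ratios of -0.75 and -0.14 have the same sign, but only the first passed 1.5-fold, so BASP1 was not called for Pontin siRNA. The first ratio lay outside the central 95% of bright genes in that pair (-0.48 to 0.42), and the second lay inside it (-0.65 to 0.52). Whatever the second pair gave, 1.47% of bright genes were at least 1.5-fold lower in the first pair. In both pairs 1.1% of bright genes were.

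The signal of BASP1 with both knockdowns exceeded the sum of its single log2 effects. The departure, the log2 signal with both minus each single knockdown plus the control, was 0.62, and 1.37% of bright genes departed upward by at least 1.5-fold. This departure is the difference between the pairs of either knockdown, so it restates the unequal ratios above, and it passed 1.5-fold by a small margin. It was 0.38 with arrays centred on their medians and 0.55 with a pseudocount of 16. With both knockdowns compared with control shRNA, BASP1 stood at a log2 ratio of 0.99. RUVBL1, the siRNA target, was 3.75-fold lower in the first Pontin siRNA pair and 6.05-fold lower in the second. The part of this difference in the departure was not tested.

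The other BASP1 probe set, 228589_at, was not kept, with signals of 1.9 with both knockdowns, 3.3 with p53 shRNA, 3.2 after Pontin siRNA and 1.6 with control shRNA. Every account of BASP1 therefore rests on 202391_at. When the log2 signals of both probe sets were averaged, the p53 shRNA ratios were 1.09 and 0.50, the call was lost, and the departure was -0.59. BASP1-AS1, an antisense RNA gene whose annotated span on chromosome 5 (17130028 to 17217422) overlaps the start of BASP1, has its own probe set, and its signals of 15.1, 2.1, 6.9 and 5.2 in the same order of arrays also fell short of the limit for genes kept.

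**Figure D2:**
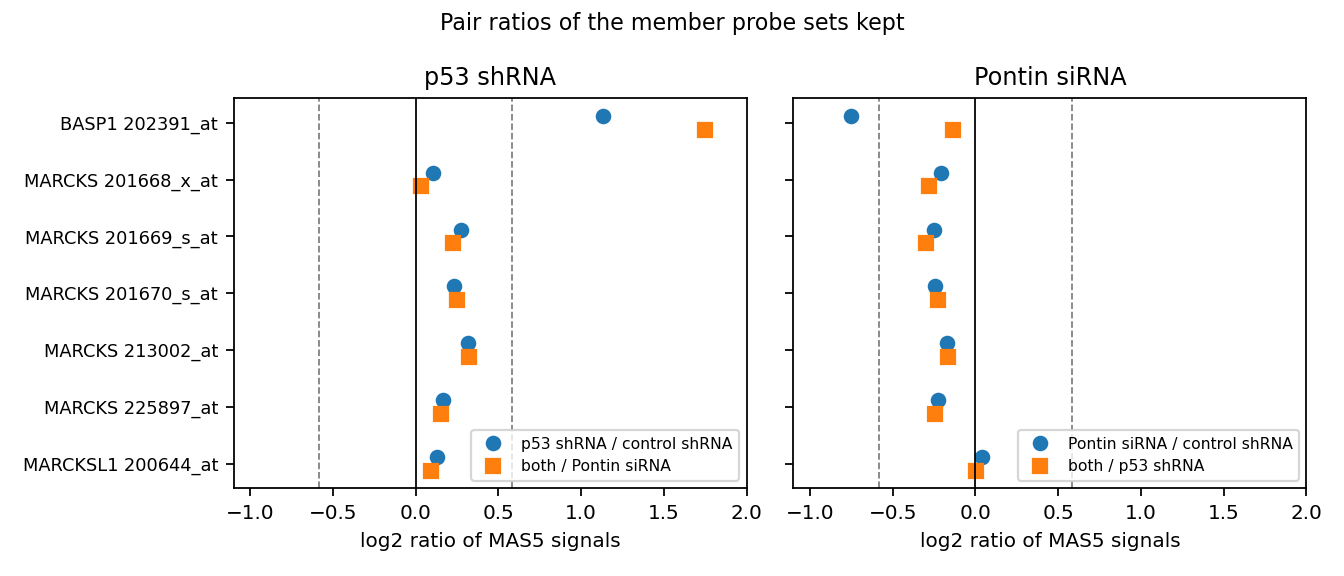
Log2 ratios of MAS5 signals for the 7 member probe sets kept, with p53 shRNA (left panel) and Pontin siRNA (right panel); circles are the first pair, squares the second, and dashed lines mark 1.5-fold. All 5 MARCKS probe sets lie right of 0 in the left panel and left of 0 in the right panel, inside the dashed lines, while BASP1 passes the line in both p53 shRNA pairs.

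MARCKS, the prototype protein kinase C substrate of the family, was slightly higher with p53 shRNA and slightly lower with Pontin siRNA on all 5 of its probe sets, always by less than 1.5-fold. On the brightest, 201669_s_at, the signal was 2351.6 with p53 shRNA, against 1941.0 with control shRNA, and 1910.6 with both knockdowns, against 1632.7 with Pontin siRNA. The p53 shRNA array was the highest, the Pontin siRNA array the lowest, and the other two were nearly equal. The fold differences with p53 shRNA were 1.21 and 1.17, and those with Pontin siRNA were 1.19 and 1.23 in the lower direction. On this probe set both knockdowns compared with control shRNA gave a log2 ratio of -0.023, and the departure from additivity was -0.050.

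The other MARCKS probe sets gave the same order of signs. Probe set 201670_s_at gave 634.8 with both knockdowns, 743.5 with p53 shRNA, 533.7 after Pontin siRNA and 631.9 with control shRNA. Probe set 225897_at gave 477.3, 564.1, 429.6 and 502.0 on those arrays, and 213002_at gave 309.3, 346.5, 247.0 and 278.7. On each of these 3 probe sets, as on the brightest, p53 shRNA was the highest array and Pontin siRNA the lowest. Of these, 225897_at and 213002_at are of the type designed against a single transcript. The dimmest probe set, 201668_x_at, of a type that can cross-hybridize, ranged from 26.0 to 32.3. Over the 4 bright probe sets the p53 shRNA log2 ratio averaged 0.25 ± 0.063 in the first pair and 0.24 ± 0.071 in the second (SD over probe sets). The Pontin siRNA log2 ratio averaged -0.22 ± 0.034 in the first pair and -0.23 ± 0.056 in the second. These probe sets read the same RNA on the same arrays, so their agreement measures probe noise and not the spread between cultures.

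The MARCKS ratios lay inside the spread of other genes. The central 95% of bright genes ran from -0.44 to 0.45 in the first p53 shRNA pair and from -0.46 to 0.44 in the second, and 6.8% of bright genes had a mean p53 shRNA ratio at least as high as that of MARCKS. For Pontin siRNA 10.3% had a mean ratio as low or lower. MARCKS was called for neither knockdown. Centring arrays on their medians moved the median of the mean ratios over all genes kept to -0.13 with p53 shRNA and -0.16 with Pontin siRNA. The mean p53 shRNA ratio of MARCKS was then 0.12, above the p53 shRNA median. Its second p53 shRNA ratio was -0.022 in place of 0.23.

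MARCKSL1, the smaller MARCKS homologue, was nearly level across the arrays. Its single probe set, 200644_at, gave 1672.3 with both knockdowns, 1670.9 with p53 shRNA, 1568.0 after Pontin siRNA and 1528.3 with control shRNA, a range of 1.09-fold. The arrays with p53 shRNA were the higher ones, by log2 ratios of 0.13 and 0.093. The Pontin siRNA ratios were 0.037 and 0.0012. With median centring the mean ratios were -0.018 with p53 shRNA and -0.15 with Pontin siRNA, both above the shifted medians of all genes kept.

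GAP43 could not be followed at these signals. Its 3 probe sets ranged from 0.7 to 17.9, and their geometric means of 2.76, 6.85 and 2.90 lay below the limit for genes kept. Probe set 216963_s_at gave 17.9 with both knockdowns, 8.5 with p53 shRNA, 11.1 after Pontin siRNA and 1.3 with control shRNA. Probe set 204471_at gave 7.9, 0.7, 9.6 and 1.1 on the same arrays, and 216967_at gave 2.1, 6.8, 1.5 and 3.3. The 3 probe sets put different arrays highest, so no ratio is given.

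BASP1 and MARCKS shared a sign pattern, above 0 in both p53 shRNA pairs and below 0 in both Pontin siRNA pairs, which 12% of bright genes also had. The size of the pattern differed: the 4 log2 signals spanned 1.89 for BASP1 and 0.53 for MARCKS on its brightest probe set. For Pontin siRNA 0 of the 3 genes kept were called, where 1.17% of genes kept were called higher and 1.24% lower. The median over the 3 genes was 0.25 with p53 shRNA and -0.27 with Pontin siRNA, beside medians of -0.0024 and 0.0099 over all genes kept. Both medians over the 3 genes are the MARCKS values. Since BASP1 was chosen for its rise with p53 shRNA, no shift of the family is read from the p53 shRNA median. Of the calls over all genes, 61.5% were higher with p53 shRNA as deposited, 48.5% after quantile normalization, 48.8% after cyclic loess, 35.4% with median centring and 49.1% with the pseudocount. With Pontin siRNA these shares were 48.5%, 28.5%, 29.2%, 17.8% and 24.6%, and 64.6% with the mean over probe sets.

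**Figure D3:**
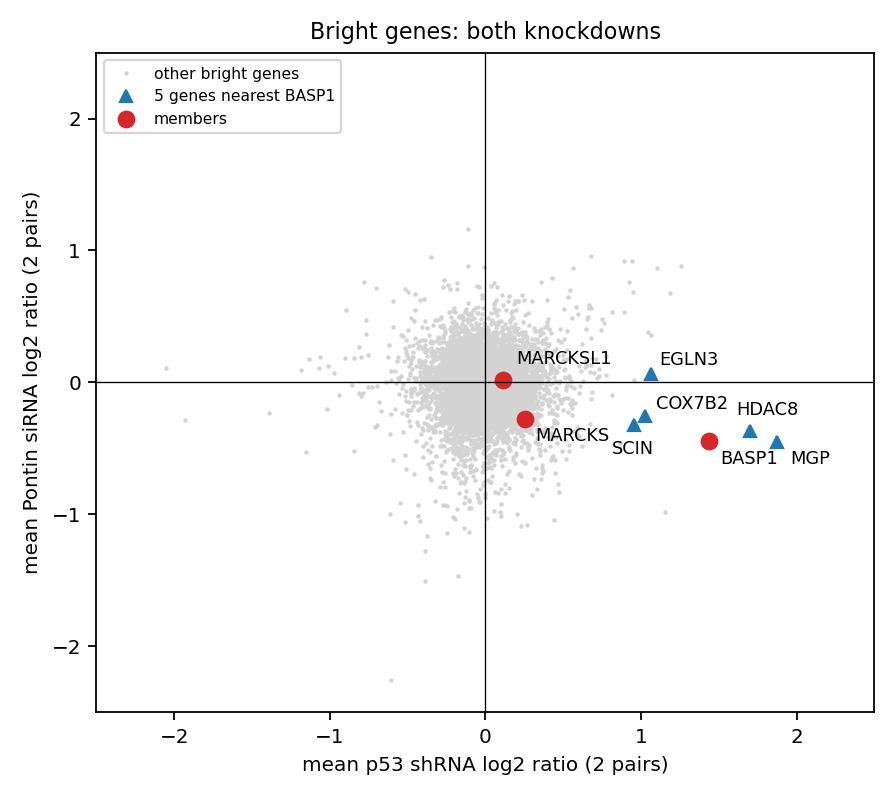
Mean log2 ratio with p53 shRNA (horizontal axis) against mean log2 ratio with Pontin siRNA (vertical axis), each over 2 pairs, for bright genes; red circles are the 3 genes of the family that were kept, blue triangles the 5 bright genes nearest to BASP1, and 1 bright gene lies outside the axes. BASP1 lies at 1.44 and -0.45, whereas MARCKS, at 0.25 and -0.27, and MARCKSL1, at 0.11 and 0.019, lie within the body of bright genes.

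Genes that tracked BASP1 over the 4 arrays were ranked by the root mean square difference in log2 signal after centring each gene on its own mean. Among 7731 other bright genes the nearest was HDAC8, a class I histone deacetylase gene, at 0.21, with signals of 359.3 with both knockdowns, 466.0 with p53 shRNA, 111.1 after Pontin siRNA and 142.6 with control shRNA. COX7B2, which encodes a cytochrome c oxidase subunit isoform, followed at 0.26 with 173.2, 195.6, 80.7 and 101.3, then MGP, encoding matrix Gla protein, at 0.31. SCIN, which encodes the actin-severing protein scinderin, was at 0.31 and EGLN3, a prolyl hydroxylase gene, at 0.35. All 5 were higher with p53 shRNA by at least 0.89 in log2 in each pair. The pattern is not shared by every probe set of these genes: HDAC8 probe set 223345_at gave p53 shRNA ratios of -0.032 and -0.16. SCIN was above 0 in both p53 shRNA pairs on all 4 of its probe sets. The likeness runs over 4 arrays only, and it is dominated by the contrast for which BASP1 was picked.

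With Pontin siRNA, the likeness of these genes to BASP1 depended on the probe set. On the brightest probe sets BASP1 had ratios of -0.75 and -0.14, against -0.36 and -0.38 for HDAC8, -0.33 and -0.18 for COX7B2, -0.32 and -0.58 for MGP and -0.26 and -0.39 for SCIN. EGLN3 was at 0.068 and 0.066, but its other probe set kept, 219232_s_at, was at -0.36 and -0.54. The departure from additivity, 0.62 for BASP1, lay between -0.26 and 0.15 for the 5 genes on those probe sets. Another bright SCIN probe set, 222272_x_at, of a type that can cross-hybridize, gave 3221.4 with both knockdowns, 3769.2 with p53 shRNA, 1152.1 after Pontin siRNA and 1944.0 with control shRNA. Its Pontin siRNA ratios of -0.75 and -0.23 and its departure of 0.53 were close to those of BASP1. These differences were not tested, since each group had 1 array.

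**Figure D4:**
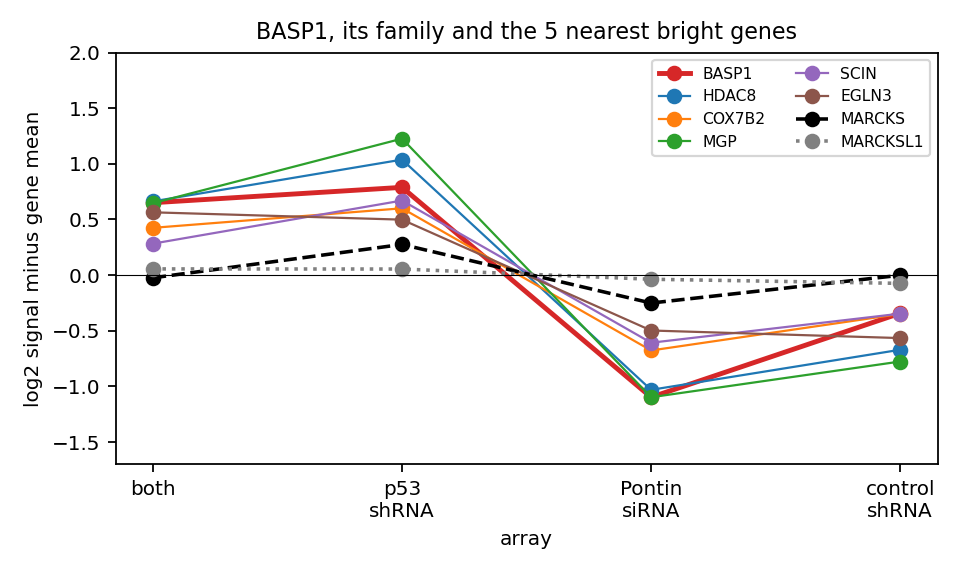
Log2 signal minus the gene's mean over the 4 arrays for BASP1 (thick red line), the 5 nearest bright genes, MARCKS (dashed) and MARCKSL1 (dotted), on the brightest probe set of each gene; lines join the points of 1 gene. BASP1 and the 5 genes are high on both arrays with p53 shRNA and low on both without, and BASP1 drops more than the others between control shRNA and Pontin siRNA.

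Genes that act on or beside these proteins mostly lay within 1.5-fold. Over 8 lists, 62 of 76 genes were kept, 2 were called for p53 shRNA, 1 in each direction, and 0 for Pontin siRNA, where 2.24% and 2.41% of all genes kept were called in either direction. Both calls belonged to the list of other protein kinase C substrates and calmodulin-binding IQ proteins. AKAP12, which encodes a myristoylated scaffold and protein kinase C substrate, had signals of 58.2 with p53 shRNA, against 34.2 with control shRNA, and 51.1 with both knockdowns, against 24.3 with Pontin siRNA. Its log2 ratios were 0.77 and 1.07, on a probe set that was not bright, and its other 4 probe sets were not kept. PCP4, which encodes a small calmodulin-binding peptide of the IQ family, gave 800.4 with p53 shRNA, against 1237.2 with control shRNA, and 695.0 with both knockdowns, against 1162.1 with Pontin siRNA. Its log2 ratios were -0.63 and -0.74.

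With Pontin siRNA, 5 of the 6 substrate and IQ genes kept were below 0 in both pairs, as were 32% of all genes kept, and the list median was -0.27, or -0.093 with the mean over probe sets. ADD1, an adducin gene counted among the 5 on its brightest probe set and named after its values were seen, was above 0 in the first pair on its other probe sets kept, at 0.17 on 214726_x_at and 0.16 on 214736_s_at. ADD3, another adducin gene of the spectrin-actin network, had ratios of -0.34 and -0.38 on its brightest probe set and was below 0 in both pairs on all 4. Its p53 shRNA ratios there were 0.11 and 0.073, the same signs as those of MARCKS.

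Among the kinases, 7 of 9 protein kinase C genes were kept and 0 were called. PRKCI, an atypical isoform, had p53 shRNA ratios of -0.079 and -0.039 and Pontin siRNA ratios of -0.22 and -0.18. PRKCD, a diacylglycerol-dependent isoform, had p53 shRNA ratios of 0.17 and -0.076 and Pontin siRNA ratios of 0.37 and 0.12. The list medians were -0.059 with p53 shRNA and -0.20 with Pontin siRNA. Of the calmodulin list, CALML4 and CALML5, which encode calmodulin-like proteins, were analysed here, and neither was called. CALML4 had p53 shRNA ratios of -0.41 and 0.67, and CALML5 of -0.82 and -0.059.

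The enzymes that attach and remove the lipid anchors were nearly level with p53 shRNA. All 8 were bright, 0 were called, and their mean p53 shRNA ratios ran from -0.22 to 0.12. METAP2, a methionine aminopeptidase gene whose product exposes the glycine to be myristoylated, had 0.033 and 0.017, and LYPLA1, which encodes a depalmitoylating thioesterase, -0.0024 and 0.018. With Pontin siRNA their ratios were -0.028 and -0.044 for METAP2 and -0.076 and -0.056 for LYPLA1, and the list median was 0.029.

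Of 16 genes of PIP2 synthesis and turnover, 15 were kept and 0 were called, with medians of 0.020 with p53 shRNA and -0.040 with Pontin siRNA. PIP4K2C and PIP5K1A, both phosphoinositide kinase genes, had p53 shRNA ratios of -0.027 and -0.10 and of 0.19 and -0.094. All 15 genes linking membrane and actin or regulating actin were kept and 0 were called. Their medians were 0.032 with p53 shRNA and 0.12 with Pontin siRNA, where 9 were above 0 in both pairs, as were 33.9% of all genes kept. ACTB, the cytoplasmic actin gene, had Pontin siRNA ratios of 0.074 and 0.17, and CAPZA2, a capping protein subunit gene, -0.15 and -0.20.

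WT1, whose product BASP1 binds in the nucleus, was not kept, while 4 of 5 genes of the corepressor list were. PHB1 and PHB2, the prohibitin genes, had p53 shRNA ratios of -0.0098 and 0.043 and of -0.14 and -0.046, and Pontin siRNA ratios of 0.24 and 0.29 and of 0.25 and 0.34. Of 10 neuronal growth and synapse genes, 5 were kept and 0 were called. TUBB3, a beta tubulin gene of neurons, had p53 shRNA ratios of 0.28 and 0.25, and L1CAM, a neural adhesion gene, -0.30 and -0.16. The growth cone genes STMN2 and NCAM1 were, like GAP43, not kept. Of the 14 medians of the 7 lists with at least 3 genes kept, which leaves out the calmodulin list, 12 changed sign under at least 1 alternative, so no direction is given for a list as a whole. Of the 23 sign changes, 9 came with median centring, which shifted the medians of all genes kept down.

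**Figure D5:**
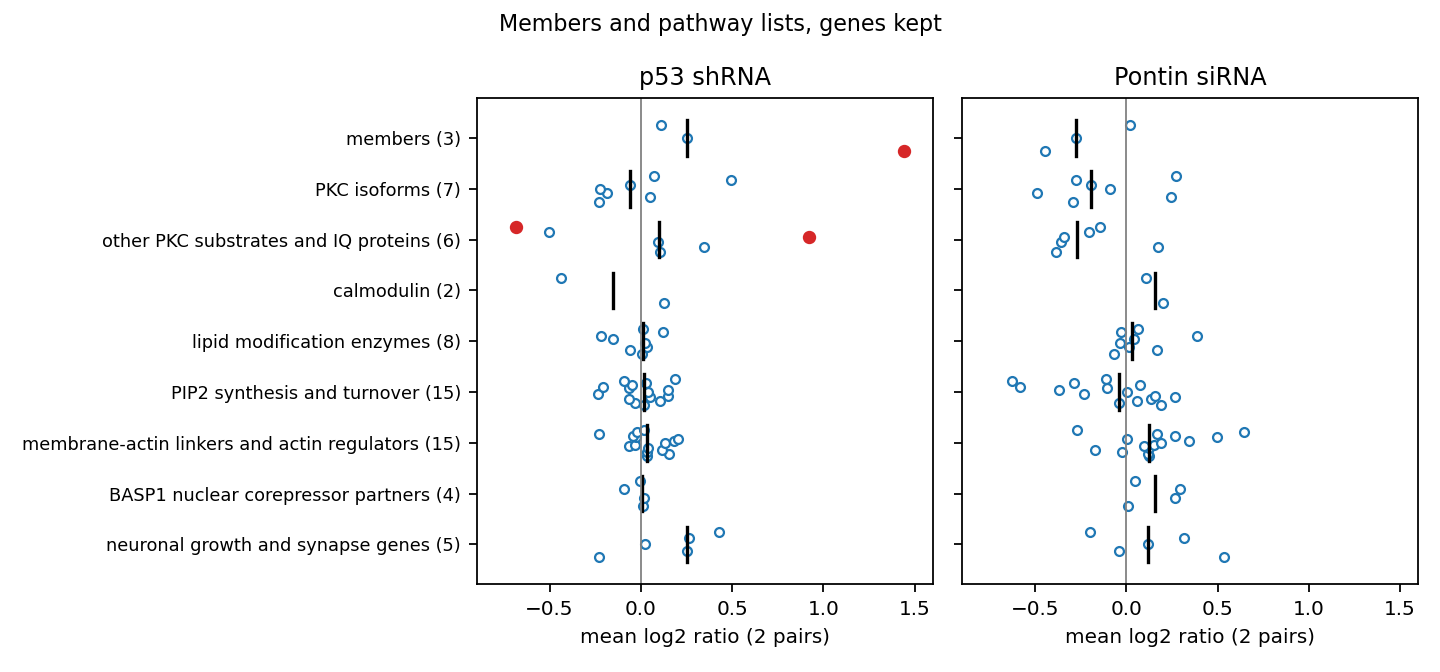
Mean log2 ratio over 2 pairs for the genes kept of the family and of the 8 lists (number kept in parentheses), with p53 shRNA (left) and Pontin siRNA (right); filled red points were called, black bars are list medians. BASP1, AKAP12 and PCP4 are the 3 called genes with p53 shRNA, and none is called with Pontin siRNA.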

How the data were processed

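RNA from 4 SK-BR-3 cultures (200 ng labelled each) was measured on 1 array per group. The deposited values are MAS5 signal intensities and are linear, per the submitters' processing notes, where MAS5 has no version. The mean without the lowest and highest 2% was equal on all arrays, so the authors had scaled them. Groups came from sample titles. Gene names came from the platform annotation and were updated by Entrez identifier from RefSeq (41043 of 41097 probe sets with 1 symbol matched). Probe sets with several symbols (1801) or none (11777) were not used. Intensities were taken to log2 without a pseudocount, and 14 signals of 0 were set to 0.1. A gene is its probe set of highest mean log2 signal. The 75th percentile limit and call rule stand in the report. Alternatives were quantile and cyclic loess normalization (limma 3.58.1, R 4.3.3), median centring, a pseudocount of 16, the mean over probe sets, leaving out x, s and a probe set types, no filter, bright genes only, and a 2-fold limit. Named genes were the 4 members, RUVBL1, of each list the called genes and the 2 of highest signal, and the 5 bright genes nearest to a member whose log2 signals span at least 0.58, which applied to BASP1 alone. Members and lists were chosen with earlier results of these data known. The target of the p53 shRNA was not analysed here. The number of arrays limits the precision, and no p-value is given.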

Additional observations from a re-analysis of the deposited data

How the results depend on the processing

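BASP1 kept its p53 shRNA call under 5 of the 6 other normalizations or probe set choices, with mean log2 ratios of 1.31 to 1.46. Of these 5, leaving out x, s and a probe set types kept the same BASP1 probe set, so no BASP1 value could change. The call also held in the first pair alone (1.13), a setting chosen after seeing the data. That setting does not use the array carrying both knockdowns. BASP1 was picked for its rise in this contrast, so the kept calls are a description and support nothing. With the mean over probe sets the mean p53 shRNA ratio of BASP1 was 0.79, and BASP1 was not called. With Pontin siRNA BASP1 was called under none of those 6 settings but passed 1.5-fold in the first pair alone, at -0.75. The mean over probe sets changed the sign of that first ratio of BASP1, to 0.12, with -0.47 in the second pair. Its departure, 0.62, was 0.38 with median centring, 0.55 with the pseudocount and -0.59 with the mean over probe sets, which includes the dim probe set. MARCKS kept the sign of both mean ratios throughout and was never called. MARCKSL1 was at -0.018 with p53 shRNA and -0.15 with Pontin siRNA under median centring, where all genes shifted down. Other causes were not tested.

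Counts of genes moved more. With p53 shRNA, 166 genes were higher and 104 lower. These counts were 98 and 179 with median centring, 55 and 57 with the pseudocount, 28 and 21 at 2-fold, 1202 and 734 without a filter, 17 and 32 among bright genes, and 604 and 453 in the first pair alone. The mean over probe sets gave 158 lower. With Pontin siRNA, 141 were higher and 150 lower. Higher counts were 75 after quantile normalization, 77 after cyclic loess, 34 with the pseudocount and 266 with the mean over probe sets. Higher and lower counts were 54 and 249 with median centring, 15 and 14 at 2-fold, 1208 and 746 without a filter, 14 and 85 among bright genes, and 511 and 466 in the first pair alone. Of the list genes, 2 were called with p53 shRNA. That was 1 with the pseudocount, without x, s and a probe set types and among bright genes, and 4 without a filter and in the first pair alone. With Pontin siRNA 0 were called, 1 with median centring, 4 with the mean over probe sets, 1 without a filter and 2 in the first pair alone.

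GAP43 and the dim BASP1 probe set lay at signals where ratios could not be read.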

Other observations

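Beyond the rule for named genes, some genes of the membrane and actin lists were picked after their values were seen. RDX, which encodes radixin, a linker of membrane proteins to actin, had signals of 2437.4 with Pontin siRNA, against 1701.1 with control shRNA, and 2618.2 with both knockdowns, against 1539.1 with p53 shRNA. Its log2 ratios were 0.52 and 0.77, the first short of 1.5-fold. EZR, which encodes the related linker ezrin, gave 4066.4 with Pontin siRNA, against 3488.7 with control shRNA, and 5011.6 with both knockdowns, against 3640.7 with p53 shRNA. SYNJ1, which encodes a phosphatase that removes PIP2, moved the other way, with 224.5 with Pontin siRNA, against 325.8 with control shRNA, and 197.7 with both knockdowns, against 325.4 with p53 shRNA. Its Pontin siRNA ratios were -0.54 and -0.72, and its p53 shRNA ratios were -0.0018 and -0.18. MSN, another linker gene of the list, which was kept but not bright, had Pontin siRNA ratios of -0.11 and 1.1. None of these genes was called. Their values are those of the brightest probe set of each gene, and they were not tested.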
